A study of Mus musculus with 2 samples.

Results

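The ubiquitin-conjugating (E2) enzyme family was taken as every mouse gene whose name starts with Ube2 and that has at least 1 transcript annotated as protein-coding, leaving out names marked -ps for pseudogenes. The rule gave 37 genes of 21901 genes with a protein-coding transcript. The RNA came from G1E-ER4, a male mouse immortalized erythroid line derived from Gata1-null cells that carry GATA1 fused to an estrogen receptor domain, and the cells had been given 17beta-estradiol at 10 nM over 24 h so that the fusion could act and the cells differentiate. Polyadenylated RNA was read as paired ends in 2 libraries, biological replicates 1 and 2, which form the only group. Both carry 1 biosample record and nothing says they came from separate cultures, so their spread may be technical. With no untreated library analysed here, every value is a level and not a change.

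E2 enzymes sit in the middle of the ubiquitin cascade. An E1 enzyme activates ubiquitin, the E2 takes it over on a cysteine, and an E3 ligase brings the loaded E2 to the protein to be marked. Which E2 acts sets much of what is built, since some E2s place the first ubiquitin and others extend chains through a particular lysine, and a few carry SUMO, NEDD8 or ISG15 in place of ubiquitin. In red cell formation the cascade is known for clearing ribosomes, organelles and nuclear proteins, and UBE2O and UBE2H are E2s known to be induced in maturing erythroid cells.

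A name that starts with Ube2 does not by itself make an active E2. Ube2v1 and Ube2v2 encode variants without the catalytic cysteine, and Ube2cbp, named as a binding protein of UBE2C, encodes a ligase. In-frame codons for histidine, proline and asparagine in a row, the signature upstream of the catalytic cysteine in most E2s, were found in a complete coding sequence of 23 of the 37 genes. The 14 without it in the transcript examined were Ube2cbp, Ube2e1, Ube2e2, Ube2e3, Ube2j1, Ube2j2, Ube2o, Ube2q1, Ube2q2, Ube2ql1, Ube2v1, Ube2v2, Ube2w and Ube2z. Lacking this signature does not mean inactive: Ube2e1, Ube2j1, Ube2o and Ube2z, for example, are among the E2s described below.

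The coding sequences below, each 60 bases from the first codon of this signature in the GENCODE M21 transcript, show how far close paralogs can be told apart by reads, because the results turn on pairs in which 1 gene was abundant and its relative was scarce or absent. Capitals mark bases that differ from Ube2d3 in the first set and from Ube2l3 in the second.
Ube2d3: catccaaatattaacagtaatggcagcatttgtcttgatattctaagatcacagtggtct
Ube2d1: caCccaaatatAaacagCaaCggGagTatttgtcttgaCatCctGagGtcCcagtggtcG
Ube2d2b: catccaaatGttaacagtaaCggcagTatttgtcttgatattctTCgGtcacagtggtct
Ube2l3: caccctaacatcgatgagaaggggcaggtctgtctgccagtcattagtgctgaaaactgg
Ube2l6: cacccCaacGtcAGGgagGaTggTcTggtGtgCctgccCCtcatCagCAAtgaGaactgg
Ube2d1 differed from Ube2d3 at 12 of these 60 bases and Ube2d2b at 6, and Ube2l6 differed from Ube2l3 at 18. The 3 coding windows of the Ube2d genes come from bases 223 to 282 of the coding sequence and the other 2 from bases 226 to 285. Over the whole coding sequence of 444 bases, 343 bases of Ube2d1, 369 of Ube2d2b and 383 of Ube2d2a were the same as in Ube2d3. No stretch of 50 bases in an annotated transcript of Ube2d1 or Ube2d2b occurred in a transcript of another gene.

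Most of the family was present. Levels are given in TPM, the transcript abundance unit of the tables, which corrects for transcript length and is scaled to the same total in every table, in replicate 1 and then in replicate 2. At 1 TPM or more in both replicates, 27 of the 37 genes (73.0%) were detected, against 33.3% of all 21901 genes with a protein-coding transcript, most of which are silent in any 1 cell type. At 100 TPM or more in both replicates there were 8 family genes (21.6%), against 3.61% of the 21901. These were Ube2d2a, Ube2s, Ube2c, Ube2d3, Ube2m, Ube2j2, Ube2v1 and Ube2h. Among detected genes the median was 72.0 and 76.6 TPM for the family and 20.2 and 15.3 TPM for all. The 5 genes with the highest means, Ube2d2a, Ube2s, Ube2c, Ube2d3 and Ube2m, held 57.2% of the family's summed TPM in replicate 1 and 62.3% in replicate 2. That sum was 3683 and 4892 TPM, a mean of 4288 ± 855 TPM (SD, n = 2).

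**Figure D1:**
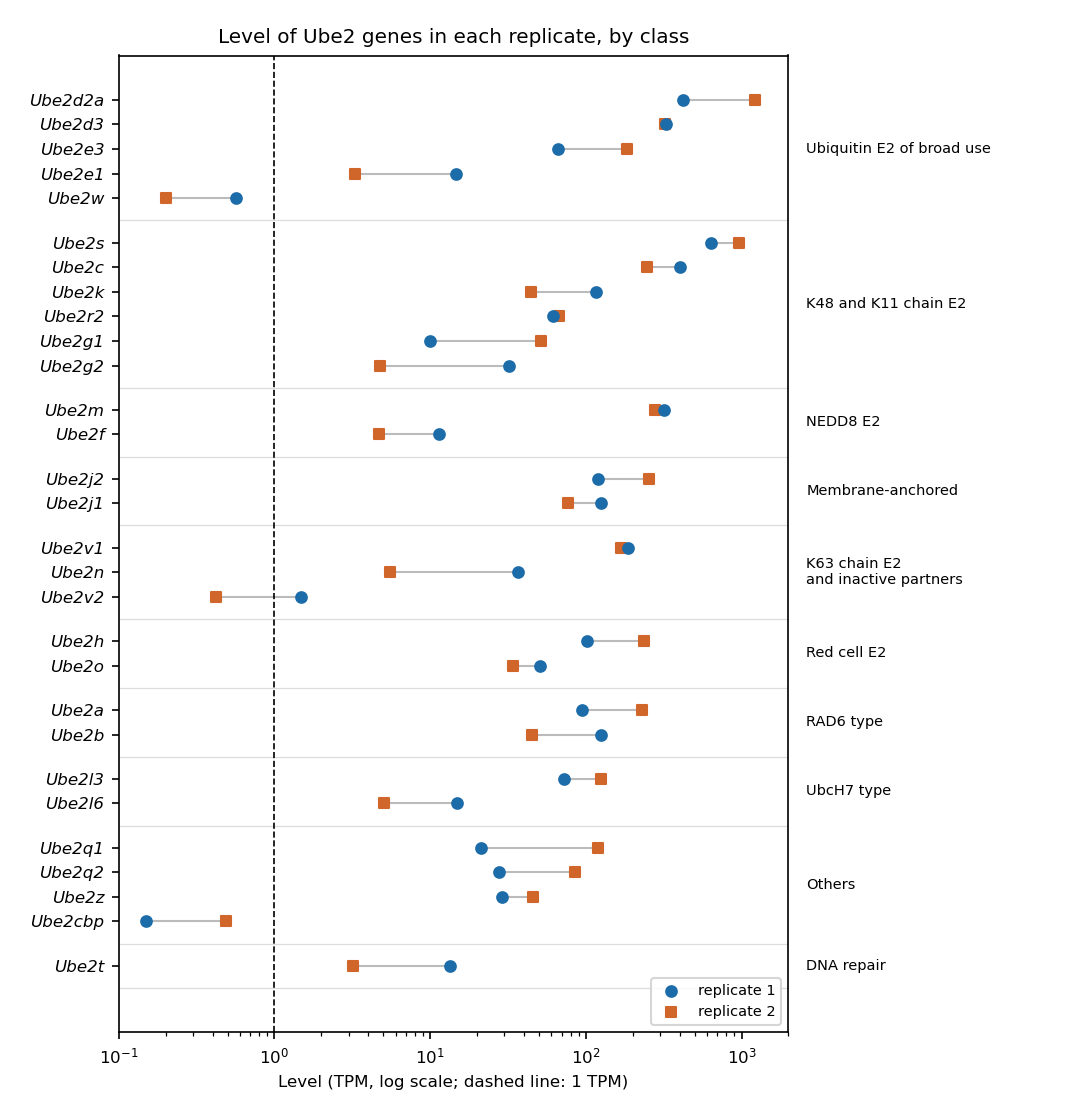
Level of 29 of the 30 family genes with any counts, in TPM on a log axis, with 1 circle for replicate 1 and 1 square for replicate 2 of each gene and genes grouped by known role; the dashed line marks 1 TPM. Ube2s, Ube2d2a and Ube2d3 lie at the high end in both replicates, Ube2v2, Ube2w and Ube2cbp lie below 1 TPM in at least 1 replicate, and the distance between the symbols is the spread between replicates.

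The E2s of broad use, which serve many ligases, were uneven. Ube2d2a, on mm10 chromosome 18 from 35771558 to 35809494, reached 420 TPM in the first replicate and 1228 TPM in the second, the highest mean of the family at 824 ± 571 TPM (SD, n = 2). Ube2d3, on chromosome 3 from 135438149 to 135468198, was at 327 and 323 TPM, so these paralogs were 1.29-fold apart in replicate 1 and 3.80-fold apart in replicate 2. In coding transcripts alone the ratio of Ube2d2a over Ube2d3 was 3.92 and 0.853, so their order differed between the libraries in this table. The table quantified from reads, described further on, gave ratios of 2.13 and 3.47 over the whole gene. Its coding share was 96.2% and 99.2% for Ube2d2a and 40.3% and 59.7% for Ube2d3. There Ube2d2a was thus the higher in coding transcripts in both libraries. Ube2e3 was at 65.9 and 184 TPM and Ube2e1 at 14.6 and 3.29 TPM, and Ube2e3 exceeded Ube2e1 by 4.52-fold in replicate 1 and 56.1-fold in replicate 2. For this pair the table quantified from reads gave 3.50-fold and 17.9-fold. Ube2e1 and Ube2e3 are close relatives whose coding sequences were the same at 432 of the 624 bases of Ube2e3. Ube2w, which marks the amino terminus of proteins, had 66 and 5 expected counts, at 0.57 and 0.20 TPM. Ube2d1, Ube2d2b and Ube2e2 had no counts in either library.

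Where nothing was counted, as many as 3 counts remain possible by counting error alone. That limit was 0.0420 CPM (counts scaled to library depth) in replicate 1, against 0.212 CPM in replicate 2. For Ube2e2 the authors' interval of the posterior level ran from 0.220 to 0.799 TPM and from 1.15 to 4.12 TPM, above the listed 0, while for Ube2d2b it reached no higher than 0.027 and 0.147 TPM. A listed level outside this interval was not particular to Ube2e2. For Ube2d2a in replicate 2 the interval ran from 1130 to 1175 TPM, below the listed 1228 TPM. A second table, quantified from the reads and not from an alignment, gave Ube2e2 0.13 and 0.18 TPM after rescaling, and 0 for Ube2d1 and Ube2d2b. Ube2d1 and Ube2d2b were thus listed at 0 in each table, and Ube2e2 was low in each without being the same.

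The E2s that build degradation chains held 34.2% of the family's TPM in replicate 1 and 28.3% in replicate 2. Ube2s, which extends the K11-linked chains that the anaphase-promoting complex uses to mark mitotic proteins, was at 635 and 970 TPM. Ube2c, which starts those chains, was at 404 and 248 TPM. Ube2s, on chromosome 7 from 4794546 to 4812590, therefore exceeded Ube2c, on chromosome 2 from 164769898 to 164778822, by 1.57-fold and 3.90-fold. In coding transcripts the ratio was 0.864 in replicate 1 and 2.22 in replicate 2. The second value rests on Ube2s-205, a coding model of 338 bases that had 338 TPM on 868 counts in replicate 2 and was at 0 in replicate 1. Ube2s-201, the main coding model, was at 346 and 212 TPM, below Ube2c in both replicates of this table. The table quantified from reads gave Ube2s-201 96.1% and 84.4% of Ube2s. After rescaling, Ube2s was at 664 and 720 TPM there and Ube2c at 396 and 275 TPM, so Ube2s-201 was above Ube2c in both. Ube2k, which extends K48-linked chains, was at 117 and 44.3 TPM. Ube2r2, a partner of cullin ligases, was at 61.6 and 67.0 TPM, well within 2-fold in this table. Ube2g1 and Ube2g2 swapped order between libraries over the whole gene: Ube2g1 was at 9.99 and 51.8 TPM, and Ube2g2, which serves protein disposal at the endoplasmic reticulum, was at 32.1 and 4.77 TPM. In coding transcripts Ube2g2 was higher in both, since the ratio of Ube2g1 over Ube2g2 was 0.0428 and 0.193.

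Both NEDD8 E2s were detected, at very different levels. Ube2m, which loads NEDD8 onto most cullins, was at 319 and 279 TPM, a mean of 299 ± 28.4 TPM (SD, n = 2). Ube2f, the other NEDD8 E2, was at 11.4 and 4.67 TPM, so Ube2m was 27.9-fold and 59.7-fold above it.

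Membrane-anchored and K63-chain E2s included both abundant and scarce genes. Ube2j1 and Ube2j2 are held in the endoplasmic reticulum membrane. Ube2j1 was at 126 and 76.6 TPM, and Ube2j2 had 119 and 254 TPM. Ube2v1, the inactive partner that steers UBC13 to K63-linked chains, was at 187 and 169 TPM. Ube2n, which encodes UBC13 itself, was at 36.8 and 5.49 TPM, so the partner exceeded the active enzyme by 5.09-fold and 30.8-fold in TPM of the whole gene. In the table quantified from reads these were 3.74-fold and 8.16-fold. With the earlier annotation M4 they were 36.4-fold and 550-fold, and in coding transcripts 151-fold in replicate 1. Ube2n had 32 expected counts in replicate 2, and 14 with M4. Ube2v2, the second such partner, was at 1.47 TPM on 275 counts and at 0.42 TPM on 12 counts, detected in replicate 1 alone.

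Of the E2s known from red cells, Ube2h, on chromosome 6 from 30211289 to 30304539, was at 102 and 237 TPM. Ube2o, on chromosome 11 from 116537740 to 116581447, was at 50.9 and 33.9 TPM. Ube2o encodes a large enzyme that acts as E2 and ligase at the same time and removes ribosomal proteins in mouse reticulocytes. Ube2h was 2.00-fold and 6.98-fold above Ube2o over the whole gene, an order that did not hold for coding transcripts alone.

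The remaining detected genes ran from near the top of the family to its bottom. The RAD6-type genes Ube2a and Ube2b mark histone H2B and the replication clamp. Ube2a was at 94.6 and 230 TPM, whereas Ube2b had 124 and 44.9 TPM, and their order differed between the libraries. That swap did not appear on every measure. In coding transcripts the ratio of Ube2a over Ube2b was 1.14 and 63.1. The second value divides by 0.17 TPM of coding Ube2b on 3.41 expected counts, so its size is not reliable. With the earlier annotation M4 the ratio was 0.192 and 0.822. In the table quantified from reads it was 0.575 and 1.75 over the whole gene. Coding transcripts there held 35.9% and 1.85% of Ube2a, against 29.7% and 16.03% of Ube2b. Coding Ube2a was thus below coding Ube2b in both libraries of that table. Ube2l3, which works with ligases that take ubiquitin onto a cysteine of their own, was at 72.0 and 125 TPM. Ube2l6, its relative that can carry ISG15, was at 14.8 and 5.06 TPM, below Ube2l3 by 4.87-fold and 24.7-fold. Ube2q1 was at 21.2 and 120 TPM and Ube2q2 at 27.9 and 85.0 TPM. Ube2z, which takes ubiquitin from UBA6, was at 29.0 and 46.1 TPM. Ube2t, the E2 of the Fanconi anemia pathway of DNA crosslink repair, was at 13.4 and 3.21 TPM.

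Below the threshold in both were Ube2w and Ube2cbp. Ube2cbp had 12 and 6 expected counts, at 0.15 and 0.49 TPM. Besides Ube2d1, Ube2d2b and Ube2e2, the genes with 0 counts in both libraries were Ube2dnl1, Ube2dnl2, Ube2ql1 and Ube2u, 7 in all. In pooled RNA from many cells, fewer cells with a transcript and less of it per cell cannot be told apart.

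The level of a gene says little about coding RNA for several members, because much of it was assigned to transcripts without a coding annotation. GENCODE sorts transcripts of a coding gene into protein-coding ones, ones predicted to undergo nonsense-mediated decay, ones that keep an intron, and processed transcripts with no annotated reading frame. Protein-coding transcripts made up 70.6% of the family's summed level in replicate 1, and 52.7% in replicate 2, compared with 69.4% and 67.9% over all genes with a protein-coding transcript. In the table quantified from reads the family's share was 84.3% and 80.3%. Retained-intron transcripts held 7.94% and 27.1%, and 1 of them, Ube2d2a-205, was at 80.7 and 1044 TPM. Summed over protein-coding transcripts alone, the family was at 2600 and 2577 TPM in the alignment-based table, a mean of 2589 ± 16.3 TPM (SD, n = 2). That is a smaller spread than that of the whole genes, for this table's split between transcripts. The sum was not taken in the table quantified from reads. Single genes differed in opposite directions in the alignment-based table: coding transcripts were at 339 and 183 TPM for Ube2d2a and 46.8 and 184 TPM for Ube2e3. The sum in replicate 2 also holds 338 TPM of Ube2s-205, which the table quantified from reads put at 0% of Ube2s there. It leaves out the 1044 TPM of Ube2d2a-205, which that table put at 0.70% of Ube2d2a in replicate 2.

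In 4 of 27 detected family genes (14.8%) protein-coding transcripts made up under 50% of TPM in both replicates and in both quantifications, against 17.4% of 7283 detected genes, so the family was near the background in this. The 4 were Ube2h, Ube2b, Ube2g1 and Ube2n, and except for Ube2h they were chosen for description after their values were seen. Of Ube2h, Ube2h-204, a processed transcript of 5 exons and 803 bases that holds 379 bases of coding sequence, made up 94.4% and 98.7% of TPM. The read-based table gave 95.8% and 98.8%. In expected counts it held 4534 of the 6405 of the gene in replicate 1 and 1941 of 2113 in replicate 2. Coding transcripts of Ube2h were at 5.73 and 3.07 TPM, against 22.8 and 33.9 TPM for those of Ube2o, which turns the order of these red cell E2s round.

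Ube2g1-202, a retained-intron transcript with 648 of its 1469 bases in an intron of coding transcripts, made up 86.3% and 98.2% of Ube2g1. Ube2b-203, a processed transcript with 248 of 516 bases in such an intron, made up 62.3% and 76.5% of Ube2b. In expected counts, which are not divided by length, coding transcripts held 52.0% and 1.68% of Ube2b and 31.1% and 4.89% of Ube2g1. Ube2n-203, with 230 of 699 bases in introns, made up 89.7% and 47.8% of Ube2n, the second value on 32 counts of the gene. Coding transcripts of Ube2n were at 1.24 TPM in replicate 1 and listed at 0 in replicate 2. Ube2a followed the same pattern without meeting the 50% limit in replicate 1 of the alignment-based table: Ube2a-207 made up 44.2% and 95.3% there, while the read-based table gave 63.8% and 94.0%.

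The boundary where these transcripts run on into an intron is shown here because reads across it, or within the intron beyond it, separate the model from the coding form. Of the 2 such boundaries of Ube2n-203 the second is shown. In each line 15 coding bases in lower case are followed by 15 intron bases in capitals, read 5′ to 3′ from mm10, and the spliced form in lower case is that of the coding transcript.
Ube2a-207, chrX:36875178-36875207, plus strand: ccccgtttgaggatgGTAAGAGAGTTTCTT
Ube2a-209, spliced: ccccgtttgaggatggaacatttaagctta
Ube2b-203, chr11:51997803-51997832, minus strand: tgcagttatatttggGTGAGTTGAGCTAGG
Ube2b-202, spliced: tgcagttatatttggaccagaagggacacc
Ube2n-203, chr10:95541764-95541793, plus strand: aagccatagaaacagGTACTTAATATCTAT
Ube2n-201, spliced: aagccatagaaacagcgagagcatggacta
The deposited tables give no counts of reads across such boundaries, so these shares are estimates of the authors' quantifiers and were not checked on reads.

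Of the 8 genes of highest mean level, Ube2c, Ube2v1, Ube2m and Ube2s had over 50% of their TPM in coding transcripts in both replicates. Ube2c-202 made up 99.8% and 99.95% of Ube2c. Ube2v1-201 made up 81.0% and 98.7% of Ube2v1, with Ube2v1-202, also coding, at 18.8% and 1.35%. Ube2m was split between the coding transcripts Ube2m-201, at 26% and 71.0%, and Ube2m-208, at 44.9% and 27.1%, while the table quantified from reads gave Ube2m-201 93.9% and 71.3%. Ube2s had Ube2s-201 at 54.4% and 21.9% and the nonsense-mediated decay transcript Ube2s-202 at 45.0% and 43.1%. The short coding model Ube2s-205 held 0% and 34.8%, and the coding share in replicate 2 passes 50% only with it. The table quantified from reads gave Ube2s-202 2.86% and 15.2%, and Ube2s-205 under 0.01% and 0%. The split of Ube2s and Ube2m between models therefore depended on the quantification.

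The coding share of TPM in Ube2d2a, Ube2d3 and Ube2j2 lay on different sides of 50% in the 2 libraries. For Ube2d2a the coding Ube2d2a-210 made up 80.1% of TPM in replicate 1 and 14.8% in replicate 2, and the retained-intron Ube2d2a-205 made up 19.2% and 85.1%. In the table quantified from reads Ube2d2a-210 made up 95% and 97.8%, so the shift appeared in the alignment-based table alone. For Ube2d3 the coding Ube2d3-210 was at 20.4% and 45.0%, the nonsense-mediated decay Ube2d3-214 at 47.4% and 7.23%, and the processed Ube2d3-209 at 26% and 26.4%. In expected counts coding transcripts held 59.2% and 91.5% of Ube2d3, over 50% in both libraries. For Ube2j2 the coding Ube2j2-208 was at 40.1% and 29.9% and the processed Ube2j2-207 at 0.06% and 54.6%. The read-based table gave Ube2j2-207 0.18% and 14.1%, with a coding share of Ube2j2 of 94.7% and 85.6%, so this crossing too was in the alignment-based table alone. A coding label does not mean a whole reading frame: Ube2d2a-210 held 152 bases of annotated coding sequence and Ube2j2-208 held 105, whereas the retained-intron Ube2d2a-205 held 441, with 80 bases in introns. With levels taken from protein-coding transcripts alone, 24 of the 37 genes reached 1 TPM in both replicates, and Ube2b, Ube2g1 and Ube2n no longer did.

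**Figure D2:**
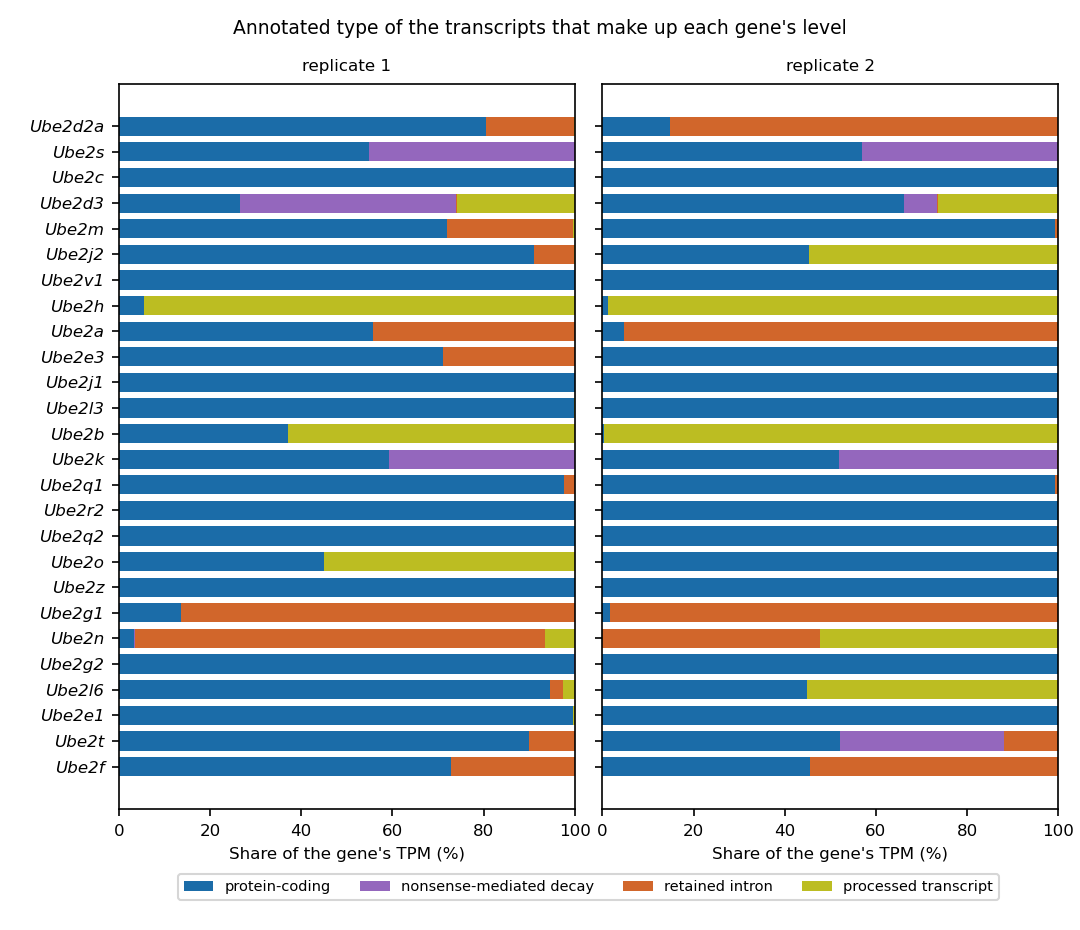
Share of each gene's TPM by annotated transcript type for 26 of the 27 detected family genes, ordered from the highest mean TPM down, with replicate 1 on the left and replicate 2 on the right; each bar adds up to 100% and carries no error bar, being 1 library. Ube2h, Ube2g1, Ube2b and Ube2n are mostly non-coding in both panels, whereas Ube2c, Ube2v1, Ube2j1, Ube2l3, Ube2r2 and Ube2z are almost wholly coding in both.

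The annotation moved the level of 4 genes. With GENCODE M4, an earlier release, 23 of the 27 detected genes lay within 2-fold of their M21 level in both replicates, with a median ratio of M4 over M21 of 1.05 and 1.10. Ube2d2a was at 92.6 and 424 TPM with M4, against 420 and 1228 TPM with M21, although its expected counts were 14394 and 10725, against 14442 and 10737. The effective length was 2254 bases with M4 and 474 bases with M21 in replicate 1, and TPM divides by it. Ube2n was at 5.41 and 0.34 TPM with M4, against 36.8 and 5.49 TPM, and Ube2a at 25.4 and 40.8 TPM, against 94.6 and 230 TPM. For Ube2d3 the counts were lower as well, at 7916 and 208 with M4, against 22843 and 6841 with M21, and the level was 48.2 and 7.48 TPM, against 327 and 323 TPM. With M4, Ube2s led the family at 925 and 1092 TPM and Ube2m came second in replicate 1 at 442 TPM.

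The quantification moved others. Of the read-based TPM, 74.0% and 23.8% fell on nuclear protein-coding genes, against 96.0% and 93.1% in the alignment-based table, so both were first rescaled to the same total over those genes. On that scale 19 of the 27 detected genes lay within 2-fold of each other in both replicates. Outside it lay Ube2m, Ube2k, Ube2r2, Ube2n, Ube2g2, Ube2l6, Ube2e1 and Ube2t, all higher in the table quantified from reads in replicate 2. Ube2l6 was at 47.8 and 35.4 TPM in the table quantified from reads, against 15.4 and 5.43 TPM, and Ube2r2 at 81.4 and 285 TPM, against 64.1 and 71.9 TPM. Ube2l3 then exceeded Ube2l6 by 1.45-fold and 2.59-fold, in place of the larger ratios above, with the order the same.

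**Figure D3:**
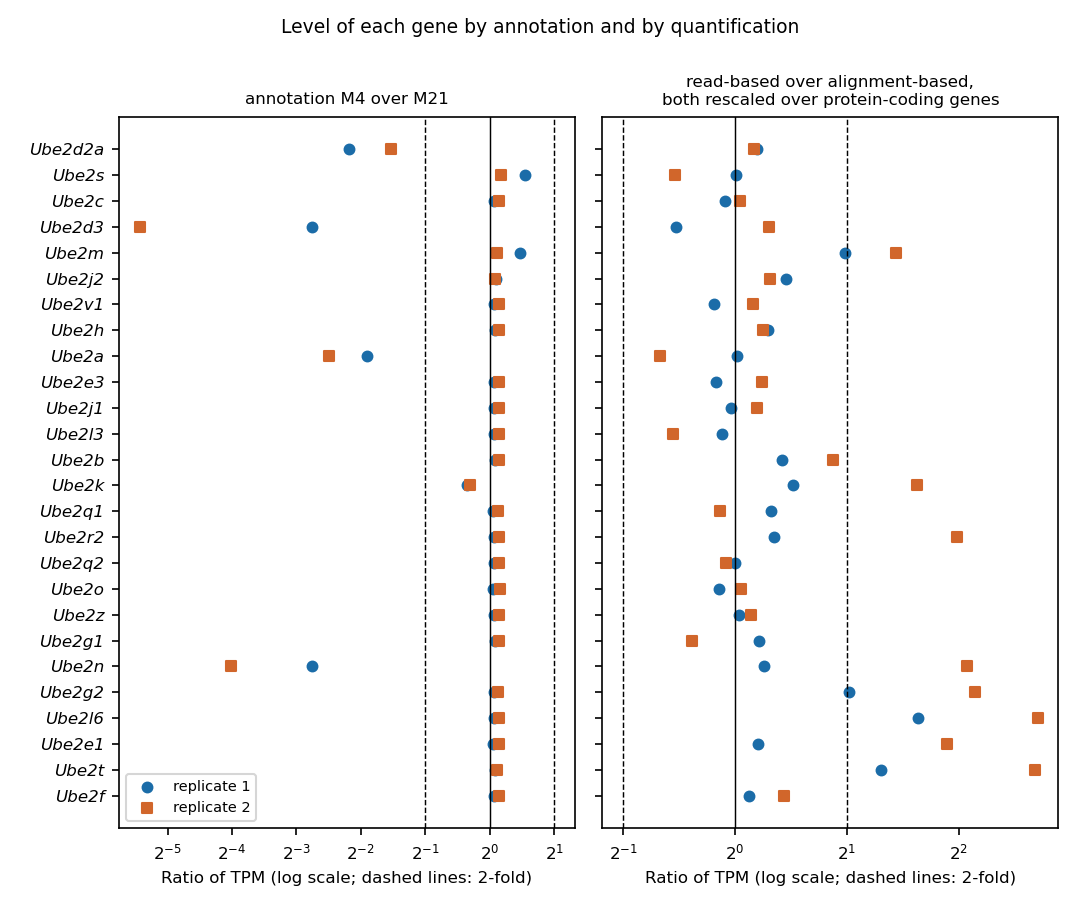
Ratio of TPM in 26 of the 27 detected family genes between annotations (left, M4 over M21) and between quantifications (right, read-based over alignment-based after rescaling both), on log axes, with circles for replicate 1 and squares for replicate 2; dashed lines mark 2-fold. On the left Ube2d2a, Ube2d3, Ube2a and Ube2n lie below 0.5 and the rest within 2-fold, and on the right the genes past 2-fold lie on the high side, most of them in replicate 2.

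Several members share sequence with other genes, and the table values depend on how reads were divided. Of the 37 genes, 12 had an annotated pseudogene that shared 50 or more different stretches of 50 bases, 32 pseudogenes in all, of which 1 reached 1 TPM in both replicates. That was Gm9762, a copy of Ube2d2a, at 1.68 and 3.70 TPM. Gm20431, a gene model annotated as coding that overlaps Ube2v1, held 56.8% of the stretches of Ube2v1 and had 0 counts. Gm26526 held 44.0% of those of Ube2h, at 0.02 and 0 TPM, and Ydjc, a neighbour of Ube2l3, held 27.2% at 1.16 and 3.97 TPM. Ube2s shared 136 stretches, 2.65% of its own, with the ribosomal protein gene Rpl28, which was at 12758 and 3128 TPM. The labels and headers do not say if strand was used, so reads of overlapping genes may be shared, and their part in these levels was not tested.

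The spread between replicates was large for many members. Among 28 family genes with a mean expected count of 50 or more, 10 (35.7%) were over 2-fold higher in replicate 1, against 35.2% of 8526 genes, and 8 (28.6%) were over 2-fold higher in replicate 2, against 15.1%. The other 10 lay within 2-fold, against 49.7% of all. The median log2 ratio of replicate 1 over replicate 2 was 0.17 in the family and 0.42 over all tested genes. Relative to that 0.42, 8 members were over 2-fold higher in replicate 1 and 11 in replicate 2. The share of all genes on that centred scale was not taken, so these counts describe the members alone. In CPM, which ignores length, 10 members were higher in replicate 1 and 5 in replicate 2, against 41.3% and 9.09% of all. In TPM of protein-coding transcripts 11 were higher in replicate 1 and 4 in replicate 2, against 43.1% and 12.6% of all. In the table quantified from reads, rescaled, 3 of 29 were higher in replicate 1 and 8 in replicate 2, against 21% and 16.2%. Each replicate is a single library, so these ratios carry no test and no p-value.

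Among the genes furthest toward replicate 1 were Ube2g2, Ube2n, Ube2e1 and Ube2t. Ube2g2 had 4339 and 112 counts and a ratio of replicate 1 over replicate 2 of 6.73 in TPM. In CPM its ratio was 7.65, and the 95% interval (exact binomial, counting error alone) ran from 6.34 to 9.32. Ube2n had 1742 and 32 counts and a ratio of 6.69 in TPM, or 10.8 in CPM with an interval of 7.59 to 15.8. Ube2e1 and Ube2t, on 52 and 48 counts in replicate 2, had ratios in CPM of 4.99 (3.78 to 6.71) and 4.71 (3.53 to 6.42). Each interval lies above 2. In the rescaled read-based table Ube2g2 stayed past 2-fold, at a log2 ratio of 1.58, but Ube2n, Ube2e1 and Ube2t lay within it, at 0.88, 0.41 and 0.64.

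The 5 furthest toward replicate 2 were Ube2q1, Ube2g1, Ube2q2, Ube2d2a and Ube2e3. Ube2q1 had 4504 and 4379 counts from libraries 5.06-fold apart in depth. Its ratio of replicate 2 over replicate 1 was 5.68 in TPM and 4.92 in CPM, with an interval of 4.72 to 5.13. Ube2g1 had ratios of 5.18 in TPM and 3.75 in CPM (3.43 to 4.09), and Ube2q2 of 3.05 and 2.58 (2.44 to 2.74). Ube2d2a had 2.92 and 3.76 (3.67 to 3.86) and Ube2e3 had 2.80 and 3.05 (2.94 to 3.16). For Ube2d2a and Ube2g1 the direction held for the whole gene but not for protein-coding transcripts of the alignment-based table. These had 339 and 183 TPM for Ube2d2a and 1.37 and 0.92 TPM for Ube2g1. In the rescaled read-based table Ube2d2a was at 503 and 1483 TPM, of which 96.2% and 99.2% was coding. Ube2g1 was at 12.1 and 42.6 TPM there, of which 11.5% and 4.20% was coding. Coding transcripts of both genes were thus higher in replicate 2 in that table.

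Over 7 scales, namely TPM, CPM, TMM, DESeq2 size factors, M4, the rescaled table quantified from reads and protein-coding transcripts, 13 of the 28 genes (46.4%) kept their side of 2-fold, against 49.3% of 8441 genes with a ratio on every scale. Higher in replicate 1 on all 7 were 3 of them, against 16.1% of all, Ube2g2 and Ube2v2 included. For Ube2v2 the M4 and coding values were 0 in replicate 2, so those calls are ratios over 0, and the others rest on 12 counts. Ube2e3, Ube2q1 and Ube2q2 were higher in replicate 2 on all 7, against 5.51% of all. Ube2s, Ube2c, Ube2m, Ube2v1, Ube2j1, Ube2o and Ube2z lay within 2-fold on all 7, against 27.7% of all. At the other end, Ube2d3 had a log2 ratio of 0.01 in TPM but 2.69 with M4 and -1.31 in protein-coding transcripts. Across the 28 genes the log2 ratio had a Spearman's rho of 0.08 and a Pearson's r of 0.02 with the gene's GC content, against a rho of -0.21 across 8422 genes, as a description across genes of the same 2 libraries.

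**Figure D4:**
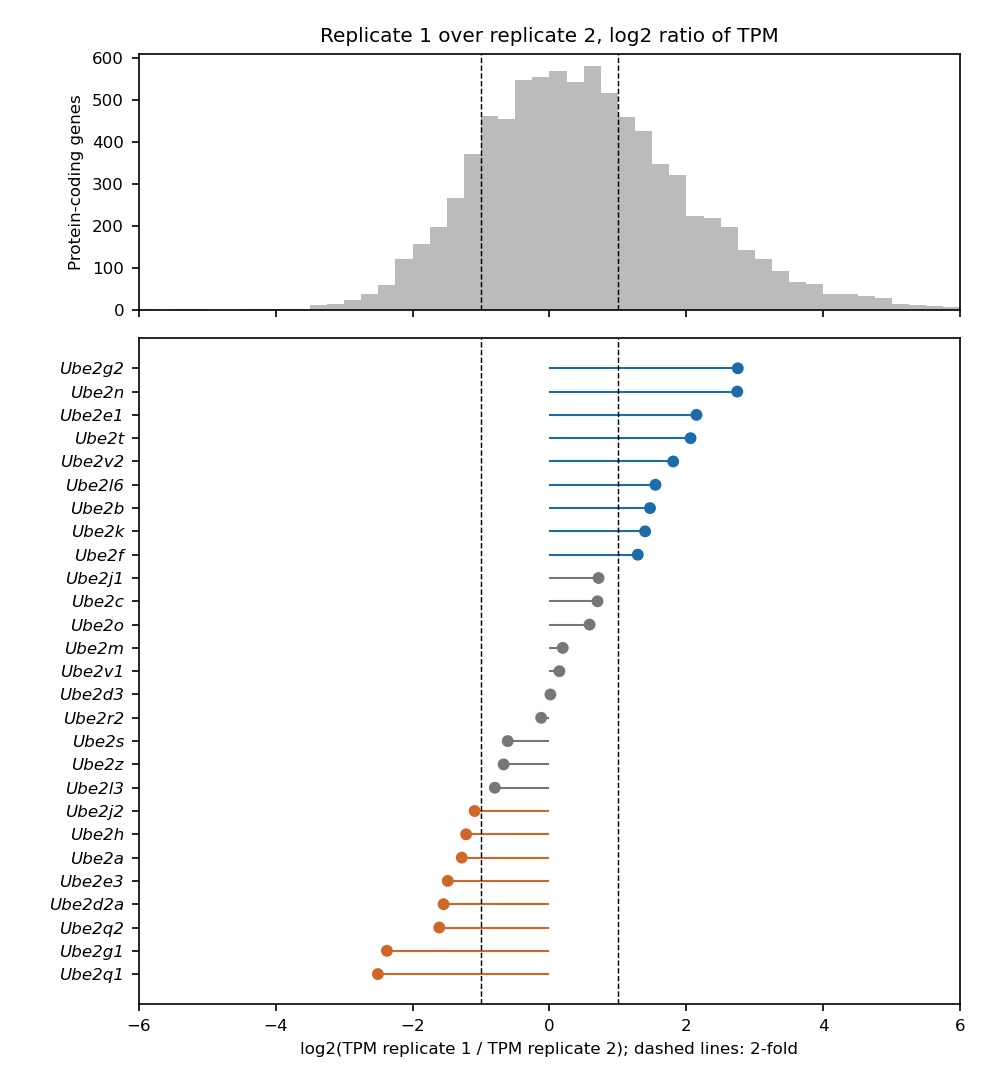
Log2 ratio of TPM, replicate 1 over replicate 2. The top panel counts genes with a protein-coding transcript and a mean expected count of 50 or more in bins of 0.25, leaving out 140 beyond the axis or at 0 in a replicate, and the bottom panel gives 27 of the 28 family genes that pass the same filter, 1 point each with no error bar. Dashed lines mark 2-fold, and 9 of the genes drawn lie beyond it toward replicate 1, 8 toward replicate 2 and 10 between.

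The partners of these enzymes were mostly detected in the same libraries. Of 9 E1 enzyme genes 7 were detected, led by Uba1, the main ubiquitin E1, at 170 and 35.1 TPM, Uba7, the ISG15 E1, at 120 and 72.3 TPM, and Atg7 of autophagy at 30.6 and 92.1 TPM. Uba6, from which Ube2z takes ubiquitin, was at 0.24 and 0 TPM, and Nae1, part of the NEDD8 E1, at 4.75 and 0.64 TPM. Of 11 genes for ubiquitin and related modifiers 9 were detected, led by Ubb at 1818 and 179 TPM. Isg15 was at 0.05 and 0 TPM and Ufm1 at 6.58 and 0.48 TPM.

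Of 8 E2 genes with other names 5 were detected, led by Cdc34, the relative of Ube2r2, at 278 and 659 TPM, Tsg101 at 184 and 121 TPM and Birc6 at 16.1 and 36.6 TPM. Aktip was at 1.75 and 0.08 TPM, Uevld at 0.30 and 0.30 TPM and Atg10 at 0.15 and 0 TPM. Of the 16 anaphase-promoting complex genes 15 were detected, led by its activator Cdc20 at 260 and 201 TPM, Anapc11 at 264 and 144 TPM and Anapc5 at 277 and 64.2 TPM. Anapc10 was at 0.41 and 0 TPM. The median of this list was 22.8 and 16.5 TPM, below both of its E2s, Ube2c and Ube2s.

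All 11 genes of the CTLH complex, the ligase for which UBE2H is the E2, were detected. Ranbp10 was at 184 and 113 TPM, Wdr26 at 48.4 and 155 TPM and Ranbp9 at 68.3 and 97.1 TPM, and the list had a median of 53.7 and 41.9 TPM. All 7 genes listed for ligases of the endoplasmic reticulum and their cofactors were detected as well. Highest were Aup1, which recruits UBE2G2, at 1256 and 4039 TPM, and Syvn1 at 92.6 and 150 TPM.

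The other lists held gaps. Of 5 genes around ISG15, Uba7, given above, and Trim25 at 45.6 and 36.7 TPM were detected, and Isg15, Usp18 at 0.14 and 0 TPM and Herc6 at 0 and 0.07 TPM were not. Of 10 ligase genes that work with RAD6, UBC13 or UBE2T, 7 were detected, led by Rnf20 at 41.0 and 49.2 TPM, Rnf40 at 42.8 and 19.0 TPM and Ubr2 at 20.2 and 23.1 TPM. Rad18 was at 2.04 and 0.74 TPM, Shprh at 1.96 and 0.14 TPM and Fancl, the ligase for UBE2T, at 0.55 and 0.08 TPM. Of 10 SUMO and NEDD8 ligase genes 6 were detected, led by Pias4 at 85.6 and 128 TPM and Rbx1, the ring partner of UBE2M, at 59.8 and 1.31 TPM. Pias2, Pias3, Ranbp2 and Dcun1d1 were detected at under 10 TPM. Rnf7, the ring partner of UBE2F, was at 26.8 and 0.85 TPM, Dcun1d3 at 7.45 and 0.11 TPM, Pias1 at 1.04 and 0.76 TPM and Dcun1d2 at 1.52 and 0.21 TPM.

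The depth and identity of the libraries bear on all of these values. Expected counts summed to 71485617 in replicate 1 and 14121747 in replicate 2. All 7 erythroid markers were detected, Epor the lowest in replicate 1 at 102 TPM, Alas2 the lowest in replicate 2 at 69.0 TPM, and Hbb-bs the highest at 97719 and 34786 TPM. None of 14 markers of T, B, granulocytic, macrophage, mast, megakaryocytic and stromal cells reached 1 TPM, the highest being Cd79a at 0.21 and 0.55 TPM, and 7 of them had no counts. Erythroid markers differed between the libraries as well, with Klf1 at 634 and 2134 TPM and Alas2 at 304 TPM in replicate 1. Depth and these markers moved with the differences between replicates given above, and their part in them was not tested.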

How the data were processed

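RNA was measured in 2 libraries of 1 group, and gene names come from the transcript labels inside the deposited read-based table. The expected counts deposited for each gene and transcript are fragment estimates and can be fractional. TPM, as the authors deposited it (maximum likelihood, and posterior mean as an alternative), is scaled to the same total in every table. The percent of a gene held by each transcript was deposited too, and shares were recomputed here from TPM. Bounds of the authors' posterior TPM interval are a deposited signal of unstated level, and effective length is in bases. Assembly mm10 is named per the labels, and the annotation releases GENCODE M21 and M4 by the deposited text notes, which also separate tables made from an alignment from those made from reads. The sources used here name no aligner or quantifier, though column names match those of RSEM and kallisto. Levels come from the M21 gene table unless another is named.

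The members and lists were chosen with earlier results of these data known. Members are named, with TPM where it reached 1 TPM in either replicate, with replicate ratios for at most 5 in each direction, transcripts for the 8 of highest mean TPM, and the 3 highest and every undetected gene of each partner list. Other transcripts were chosen after their values were seen. Detection was 1 TPM in both replicates, and replicate ratios used a mean count of at least 50 and 2-fold. Intervals are exact binomial at 95%, on rounded counts, for counting error only. The representative coding sequence was the most abundant complete one of at least 90% of the longest, and identity was taken over a global alignment. TMM came from edgeR 4.0.16 and size factors from DESeq2 1.42.0 on rounded expected counts, in R 4.3.3. The rest was done in Python 3.11.15 with pandas 2.3.3, numpy 2.4.6, Biopython 1.88, scipy 1.17.1 and matplotlib 3.10.9. The counting of 2-fold differences was tested on simulated counts with counting error alone, scaled to depth. That setting held no further spread between libraries, so it does not bear on the spread seen here. The depth differed 5.06-fold, so replicate 2 is the less precise. The M4 transcript tables were not used here, and both samples were kept. Alternatives were M4, the read-based table, posterior TPM, other thresholds, pseudocounts and scalings, and each replicate alone. Values of 1 family gene and of some partner genes are not reported here, though the counts and sums include them.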

Additional observations from a re-analysis of the deposited data

How the results depend on the processing

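The count of 27 detected genes ranged from 23 at 5 TPM to 29 in the rescaled table quantified from reads, and was 24 for protein-coding transcripts alone, an alternative chosen after seeing the data. Each replicate alone gave 27 to 28 detected genes and a summed TPM of 3683 to 4892. That sum averaged 4288 TPM, against 2341 TPM in the table quantified from reads and 5265 TPM once that was rescaled. Of the 10 and 8 genes over 2-fold higher in replicate 1 and in replicate 2, the table quantified from reads gave 18 and 0, its rescaled form 3 in replicate 1, CPM 5 in replicate 2, and protein-coding transcripts 4 in replicate 2. The median log2 ratio of 0.17 was 0.52 with M4, 0.35 in CPM, 1.39 in the table quantified from reads, 0.71 in protein-coding transcripts and 0 with no count filter on log2(TPM + 1), and turned to -0.24 in the rescaled table quantified from reads, -0.0062 with TMM and -0.085 with DESeq2 size factors. Its sign therefore depended on the scaling, and the cause was not tested. Over single genes, the mean TPM of 25 of 30 moved by less than the SD between replicates with M4, that of 21 of 30 did in the rescaled table quantified from reads, and so did the share of the leading transcript in 19 of 30. With 2 libraries that SD is itself imprecise, and it is wide where the replicates differ. Ube2d2a, at 824 TPM with M21 and 258 TPM with M4, and Ube2n, at 21.1 and 2.9 TPM, therefore counted as unmoved. Ube2v1, at 178 and 192 TPM, counted as moved. Genes on under 50 counts in replicate 2, Ube2n, Ube2t and Ube2v2 among those given ratios, are limited by its depth. No paired analysis was possible because the series has 1 group.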

Other observations

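Outside the rule stood 6 further Ube2 names without a protein-coding transcript. Ube2d-ps, annotated as a transcribed unprocessed pseudogene, had 471 expected counts in replicate 1 and 13 in replicate 2, at 3.84 and 0.61 TPM. Ube2n-ps1 had 3.2 and 0 counts, and Ube2nl, Ube2d4, Ube2l3-ps1 and Ube2uos, the last an antisense gene, had 0 in both.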
